A study of Mus musculus with 20 samples.

Results

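Pcna, Ccnb2 and Kif11 are 3 genes of the cell division cycle, 1 for DNA replication, 1 for entry into mitosis and 1 for the mitotic spindle. They were taken by name from the 5552 mouse genes to which the deposited counts could be assigned, and all 3 were among the 2200 genes that passed the filter on low counts. Liver RNA was sequenced from 20 individual mice in 4 groups of 5: control mice without antibiotics (Control_No_ABX, mice 6 to 10), control mice with antibiotics (Control_ABX, mice 1 to 5), mice given anti-CD40 without antibiotics (Anti-CD40_No_ABX, mice 16 to 20) and mice given anti-CD40 with antibiotics (Anti-CD40_ABX, mice 11 to 15). Anti-CD40 is an antibody to CD40, a receptor of antigen-presenting cells. The strain, age and sex of the mice, what the controls received, the antibiotics, and the dose and timing of the antibody are not stated in the labels used here. Each library held 5053014 to 7618736 counted fragments.

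Most hepatocytes of the adult liver rest outside the cell cycle and can re-enter it after injury or loss of tissue, while immune cells that are activated in the liver can divide there too. PCNA is the ring-shaped clamp that holds DNA polymerases on the template during S phase and recruits repair enzymes. Cyclin B2, the product of Ccnb2, is a mitotic cyclin that partners the kinase CDK1 and is degraded as cells leave mitosis. Kif11 encodes the bipolar kinesin Eg5, which slides spindle microtubules apart so that the spindle poles separate. Transcripts of Ccnb2 and Kif11 peak in G2 and mitosis, whereas Pcna transcripts rise around S phase and are also kept at a basal level in resting cells.

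The authors' counts were made at human exon coordinates on mouse alignments, so each gene was measured only where those coordinates happened to fall. Coordinates are of mouse build mm10 (GRCm38) with GENCODE M21. Pcna (chr2:132249162-132253314, minus strand, 6 exons) was counted over 152 bp of exon 1, chr2:132253154-132253305. All of it is 5′ untranslated sequence of the GENCODE transcript, and 125 of the 152 bp lie upstream of the RefSeq gene start. Ccnb2 (chr9:70407692-70421547, minus strand, 9 exons) was counted by a feature of 5175 bp. Of these, 313 bp are coding sequence of exons 4 and 5, the rest of a 1766 bp interval is Ccnb2 intron, and 3409 bp lie outside Ccnb2 in an intron of Myo1e. Kif11 (chr19:37376403-37421859, plus strand, 22 exons) was counted over 2443 bp inside the gene, chr19:37401404-37403846. There 277 bp are coding sequence of exons 11 and 12, and 60.1% of the interval lies on some annotated exon, which includes a transcript that retains introns. Fragments of spliced and unspliced RNA cannot be told apart in these sums. Over 20 libraries the sums were 2051 fragments for Pcna, 661 for Ccnb2 and 162 for Kif11.

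The coding sequence behind the Ccnb2 and Kif11 counts is shown because only these stretches tie the counts to the spliced messages. It was read from the GENCODE M21 transcripts and is written 5′ to 3′ along the message, with no base singled out by capitals. Of Ccnb2 exon 5 only the counted part, 142 bp, is printed. Ccnb2 exon 5 shares 63 bp at 92.1% identity with both Ccnb2-ps and Zfp882, and Kif11 exon 11 shares 89 bp at 87.6% identity with the pseudogene Gm15697, so fragments inside those stretches are less certain than the others.
Ccnb2 exon 4, chr9:70413102-70413272, minus strand: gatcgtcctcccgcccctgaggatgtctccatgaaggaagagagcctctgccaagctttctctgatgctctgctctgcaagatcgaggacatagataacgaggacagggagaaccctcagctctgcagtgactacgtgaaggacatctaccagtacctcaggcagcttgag
Ccnb2 exon 5, chr9:70412859-70413000, minus strand: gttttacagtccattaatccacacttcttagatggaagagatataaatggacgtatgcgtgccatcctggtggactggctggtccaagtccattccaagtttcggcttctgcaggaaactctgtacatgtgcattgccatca
Kif11 exon 11, chr19:37402205-37402292, plus strand: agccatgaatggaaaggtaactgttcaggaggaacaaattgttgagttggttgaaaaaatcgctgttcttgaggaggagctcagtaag
Kif11 exon 12, chr19:37403461-37403649, plus strand: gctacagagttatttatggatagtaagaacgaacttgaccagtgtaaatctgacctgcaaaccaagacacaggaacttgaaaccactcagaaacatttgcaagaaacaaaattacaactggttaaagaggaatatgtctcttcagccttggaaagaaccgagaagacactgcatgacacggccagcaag

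**Figure D1:**
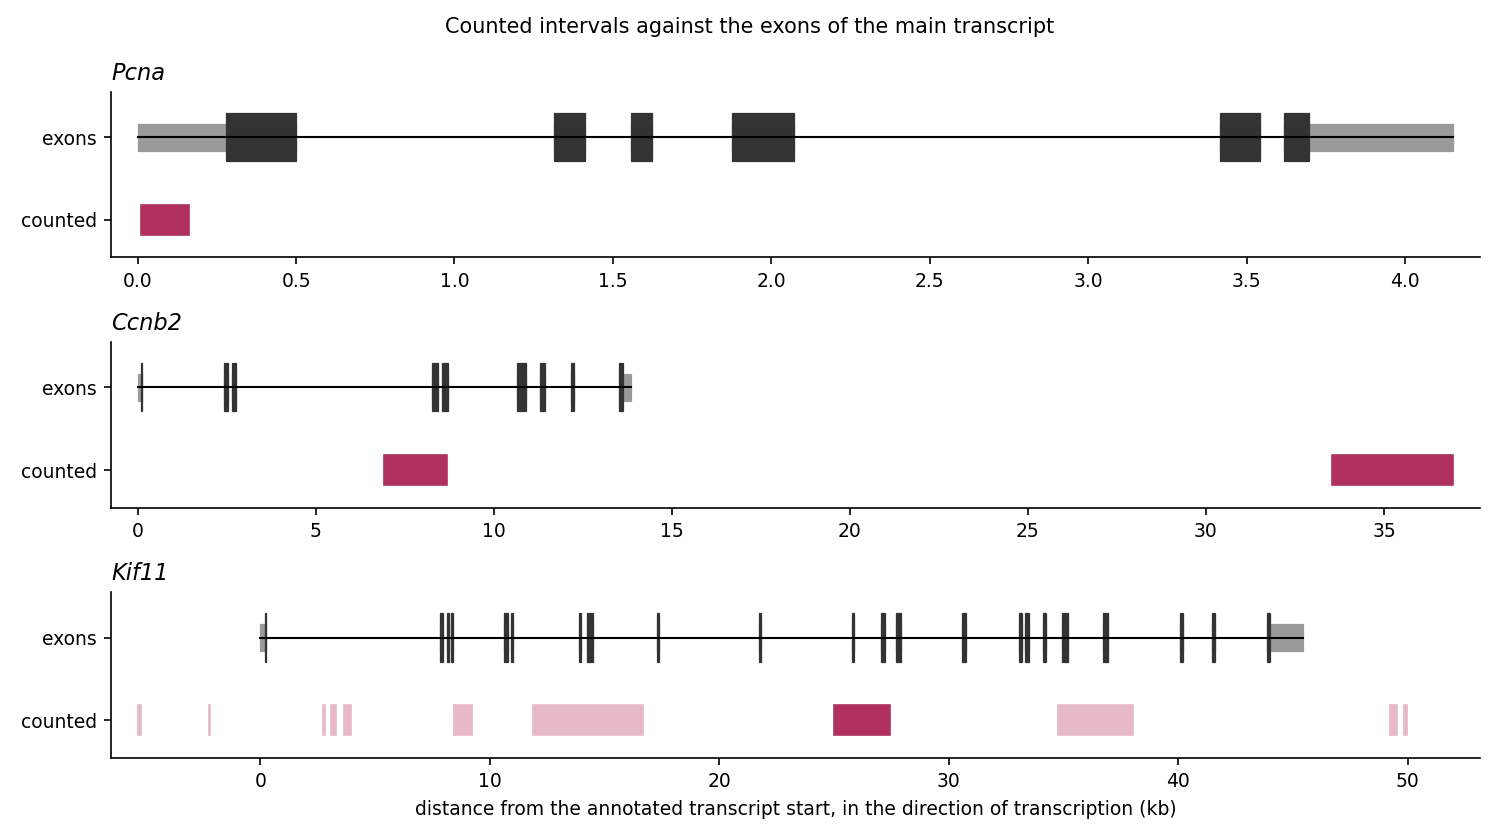
Map of each gene along the direction of transcription (x axis, kb from the annotated transcript start), with the exons of the main transcript above (dark and tall for coding, grey and low for untranslated) and the counted intervals below. Dark intervals were used for the gene, and pale ones belong to 2 other features over Kif11 exons that also overlap pseudogenes or another transcript; intervals of those 2 beyond 52 kb are not drawn. The Pcna interval lies at the very start of the gene, and the second Ccnb2 interval lies outside Ccnb2.

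Per kb of counted sequence, mean levels were 102 to 116 normalised counts per 1000000 (CPM) for Pcna across the 4 groups, 0.738 to 1.59 for Ccnb2 and 0.398 to 0.86 for Kif11. The counted sequence was 100% annotated exon for Pcna but 6.0% for Ccnb2 and 60.1% for Kif11, so these levels cannot be compared between the genes. Group levels are mean ± SD of CPM after TMM scaling in 5 mice. Each change is on the log2 scale with its SE, from edgeR's quasi-likelihood test, and p was adjusted by the Benjamini-Hochberg method over all 2200 genes. The word called means an adjusted p below 0.05. None of the 3 genes was called after anti-CD40 without ABX, against a background of 60.6% of tested genes, and none had an unadjusted p under 0.05 or was called by DESeq2. After anti-CD40 with ABX, 2 of the 3 were called, in opposite directions, against 51.5% of tested genes. Kif11 was higher and Ccnb2 was lower. None was called for the difference between the 2 anti-CD40 effects (7.55% of tested genes), for ABX in control mice (6.68%) or for ABX in anti-CD40 mice (15.9%) by edgeR or DESeq2. In those 3 comparisons 1 of the 3 genes each had an unadjusted p under 0.05: Ccnb2, Ccnb2 and Kif11. For all 3 genes the values of the compared groups overlapped in every comparison of groups. Among tested genes, 42.5% did not overlap after anti-CD40 without ABX, 37.8% after anti-CD40 with ABX, 6.23% with ABX in control mice and 10% with ABX in anti-CD40 mice.

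**Figure D2:**
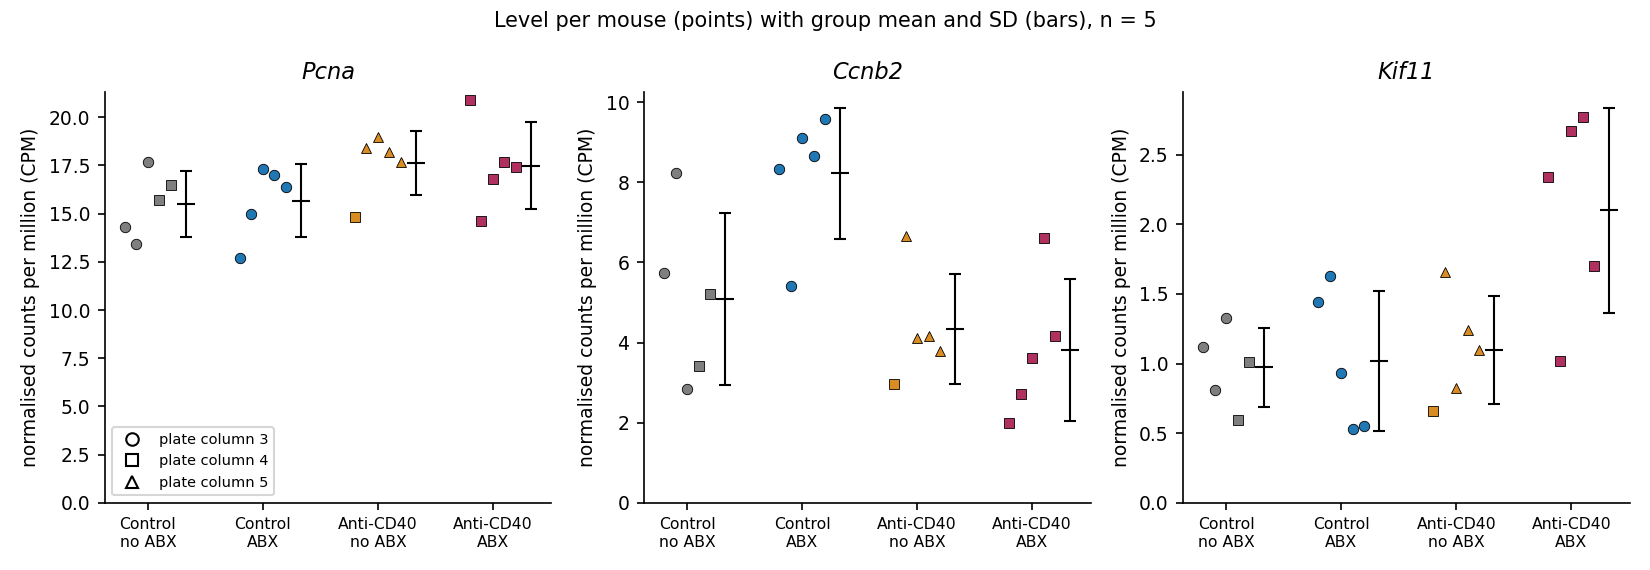
Level of each gene in every mouse (points, y axis in normalised CPM from 0) by group, with the group mean and SD at the right of each group and the marker shape giving the plate column. Pcna lies between 12.7 and 20.9 CPM in all groups, Ccnb2 has its highest mean in controls with ABX (8.23 CPM), and Kif11 has its highest mean in anti-CD40 mice with ABX (2.1 CPM).

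Pcna, the replication clamp, ranged from 12.7 to 20.9 CPM over the 20 mice under TMM scaling. Control mice without ABX had 14.3, 13.4, 17.7, 15.7 and 16.5 CPM, and control mice with ABX had 12.7, 15, 17.3, 17 and 16.4 CPM. Anti-CD40 mice without ABX had 14.8, 18.4, 19, 18.2 and 17.7 CPM, and those with ABX had 20.9, 14.6, 16.8, 17.7 and 17.4 CPM. Mouse 11 was the highest and mouse 1 the lowest, and mice 17, 18 and 19 of the anti-CD40 group without ABX exceeded every control without ABX. Means were 15.5 ± 1.71 and 15.7 ± 1.89 CPM in controls without and with ABX, and 17.6 ± 1.62 and 17.5 ± 2.26 CPM in anti-CD40 mice.

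The change of Pcna after anti-CD40 was 0.19 ± 0.12 without ABX (adjusted p = 0.177, 95% interval -0.06 to 0.43) and 0.16 ± 0.12 with ABX (adjusted p = 0.273, -0.09 to 0.41). The largest rise that these intervals include is 0.43. The 2 effects differed by -0.03 ± 0.17 (adjusted p = 0.942). ABX moved Pcna by 0.01 ± 0.12 in control mice (adjusted p = 0.966) and by -0.01 ± 0.12 in anti-CD40 mice (adjusted p = 0.955). When library totals replaced TMM scaling, Pcna was called in both anti-CD40 comparisons, at 0.44 without ABX (adjusted p = 0.00646) and 0.52 with ABX (adjusted p = 0.00196). Within plate column 4, the 1 anti-CD40 mouse without ABX had 14.8 CPM and the 2 controls without ABX averaged 16.1 CPM, too few for a test. Within column 3, ABX moved Pcna in controls by 0.05 in mean log2 CPM (exact permutation test, two-sided, p = 0.732). Library totals also moved the median of all tested genes, from 0.03 to 0.27 without ABX and from 0.02 to 0.37 with ABX.

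Ccnb2, the mitotic cyclin, was highest in control mice with ABX. Those mice had 8.34, 5.42, 9.11, 8.66 and 9.59 CPM, and anti-CD40 mice with ABX had 1.98, 2.72, 3.61, 6.62 and 4.17 CPM. The overlap of the groups rests on mouse 2, a low control, and mouse 14, a high treated mouse. Ccnb2 fell from 8.23 ± 1.64 to 3.82 ± 1.78 CPM (a log2 change of -1.09 ± 0.29, adjusted p = 0.00321), a level 0.47 times that of the controls. DESeq2 gave -1.10 (adjusted p = 0.00106), and the call held without each of the 20 mice in turn (-1.39 to -0.93).

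Without ABX, control mice had 5.73, 8.24, 2.83, 3.42 and 5.22 CPM of Ccnb2 and anti-CD40 mice had 2.97, 6.66, 4.12, 4.17 and 3.78 CPM. The controls spanned the whole range of the treated mice. Means were 5.09 ± 2.14 and 4.34 ± 1.38 CPM, a change of -0.21 ± 0.30 (adjusted p = 0.554, 95% interval -0.83 to 0.40). The anti-CD40 effects with and without ABX differed by -0.87 ± 0.42 (unadjusted p = 0.0472, adjusted p = 0.201), so the fall with ABX was not shown to differ from the change without it. Between control groups, Ccnb2 was 0.69 ± 0.29 higher with ABX (unadjusted p = 0.0234, adjusted p = 0.167), and between anti-CD40 groups the change was -0.18 ± 0.31 (adjusted p = 0.721).

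The call for Ccnb2 with ABX ended when library totals replaced TMM scaling (-0.73, adjusted p = 0.0539) and with the plate column as a term (-0.70, adjusted p = 0.336). All control libraries with ABX stood in plate column 3 and all anti-CD40 libraries with ABX in column 4, so this comparison has no value within a column. The fit with the column as a term takes the column's effect from the groups without ABX, which were split over columns: Ccnb2 averaged 5.6 CPM in 3 such controls in column 3 and 4.32 CPM in 2 in column 4. Within column 3, Ccnb2 averaged 8.22 CPM in 5 controls with ABX, and the difference from the controls without it was 0.62 in mean log2 CPM (exact permutation test, two-sided, p = 0.107, adjusted over the 3 genes 0.321). Myo1e, a myosin whose intron holds the larger counted interval of the Ccnb2 feature, was itself measured over 107 bp of its exons and fell with anti-CD40. It went from 46.3 ± 4.59 to 21.2 ± 2.94 CPM with ABX (-1.12 ± 0.13, adjusted p = 7.56e-08) and from 56.7 ± 9.73 to 20.5 ± 3.28 CPM without ABX (-1.47 ± 0.13, adjusted p = 6.31e-10). In controls, Myo1e changed by -0.29 ± 0.12 with ABX (adjusted p = 0.173), where Ccnb2 changed by 0.69. The part of Myo1e in the Ccnb2 counts was not tested.

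Kif11, the spindle-pole kinesin, was counted sparsely, with 31 fragments in controls without ABX, 29 in controls with ABX, 37 in anti-CD40 mice without ABX and 65 in anti-CD40 mice with ABX. The highest counts were in mice 11, 13, 14 and 15, given anti-CD40 with ABX (13, 17, 18 and 11 fragments), and in mouse 17 (13). No control had more than 9. Kif11 passed the filter through these 5 mice, mostly of the group where it was high, so its call there is not independent of the filter. Anti-CD40 mice with ABX had 2.34, 1.02, 2.67, 2.77 and 1.70 CPM, against 1.44, 1.63, 0.93, 0.53 and 0.554 CPM in controls with ABX. In the treated group 4 of 5 mice exceeded every control, and mouse 12 fell within their range. Kif11 rose from 1.02 ± 0.503 to 2.1 ± 0.736 CPM (a log2 change of 1.03 ± 0.37, or 2.04-fold, adjusted p = 0.0237), and DESeq2 gave 1.03 (adjusted p = 0.0361).

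Without ABX, control mice had 1.12, 0.808, 1.33, 0.594 and 1.01 CPM of Kif11 and anti-CD40 mice had 0.66, 1.66, 0.825, 1.24 and 1.10 CPM. Both groups covered nearly the same range. The change was 0.20 ± 0.39 (adjusted p = 0.685), with a wide 95% interval of -0.61 to 1.01. The anti-CD40 effects with and without ABX differed by 0.83 ± 0.55 (adjusted p = 0.374). Among anti-CD40 mice, Kif11 was 0.90 ± 0.36 higher with ABX (unadjusted p = 0.0185, adjusted p = 0.0905), and among controls the change was 0.08 ± 0.41 (adjusted p = 0.94).

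The call for Kif11 with ABX was lost without mouse 4, 5, 13 or 14 (0.87, 0.88, 0.93 and 0.90; adjusted p = 0.0693, 0.0668, 0.0609 and 0.0695), with no filter on low counts (1.0, adjusted p = 0.0694) and with the plate column as a term (1.47, adjusted p = 0.123). Within plate column 4, Kif11 averaged 2.1 CPM in the 5 anti-CD40 mice with ABX, 0.66 CPM in 1 anti-CD40 mouse without ABX and 0.802 CPM in 2 controls without ABX, too few for a test. Without mouse 12, Kif11 was also called higher with ABX among anti-CD40 mice (1.09, adjusted p = 0.0389).

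**Figure D3:**
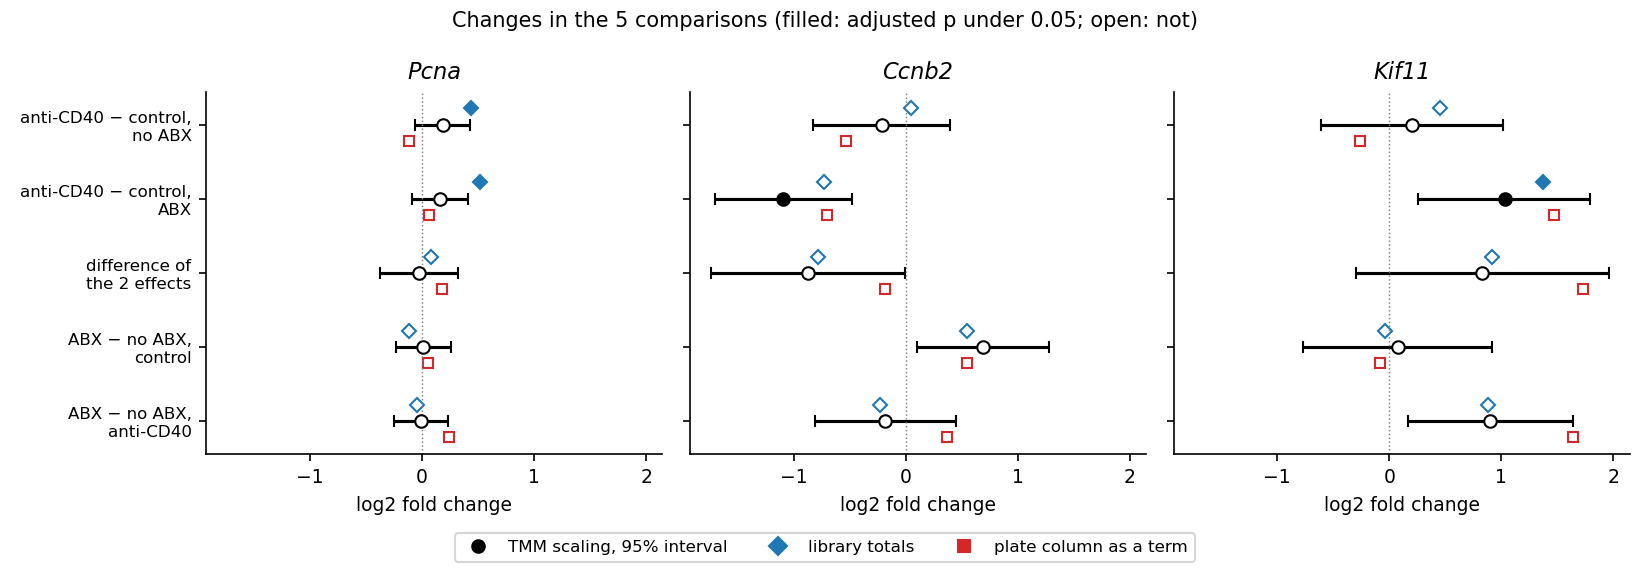
Log2 fold change of each gene (x axis) in the 5 comparisons (y axis): circles with 95% intervals are from TMM scaling, diamonds from library totals and squares from the fit with the plate column as a term. Filled symbols have an adjusted p under 0.05; under TMM scaling these are Ccnb2 (-1.09) and Kif11 (1.03) after anti-CD40 with ABX.

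Another pair of counted features lies over Kif11 exons but was left out of the gene sum because each also overlaps another gene. The feature over exons 7 and 8 (191 fragments, 334 bp on Kif11 exons) also covers the processed pseudogene AC137605.4, and the one over exons 18 and 19 (406 fragments, 503 bp) covers AC137605.3 and the pseudogene AC137605.6. They were tested in a fit of the 5432 counted features that passed the filter. That fit was not repeated with library totals, with the plate column as a term or with each mouse left out. Over exons 7 and 8 the level rose with ABX from 0.923 ± 0.386 to 2.54 ± 0.561 CPM after anti-CD40 (1.44 ± 0.35, adjusted p = 0.00105), in a comparison where 50.6% of features were called. It was 1.39 ± 0.566 and 1.29 ± 0.245 CPM in controls and anti-CD40 mice without ABX (-0.12 ± 0.34, adjusted p = 0.781). The 2 anti-CD40 effects there differed by 1.56 ± 0.49 (adjusted p = 0.0521, 6.81% of features called), and among anti-CD40 mice this stretch was 0.98 ± 0.32 higher with ABX (adjusted p = 0.0417, 14% of features called). This stretch too passed the filter mostly through anti-CD40 mice with ABX, which had 12, 18, 13, 21 and 14 fragments. Its calls are therefore not independent of the filter.

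Over exons 18 and 19 no such step was seen. Means were 2.67 ± 0.78 and 2.77 ± 1.53 CPM in controls without and with ABX and 3.94 ± 0.92 and 3.71 ± 0.623 CPM in anti-CD40 mice. The changes were 0.57 ± 0.31 without ABX (adjusted p = 0.124) and 0.43 ± 0.32 with ABX (adjusted p = 0.278). With the fragments of the 3 features added together, an alternative chosen after seeing the data, Kif11 changed by 0.83 with ABX (adjusted p = 0.00219), by 0.34 without ABX (adjusted p = 0.178) and by 0.39 with ABX among anti-CD40 mice (adjusted p = 0.215).

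**Figure D4:**
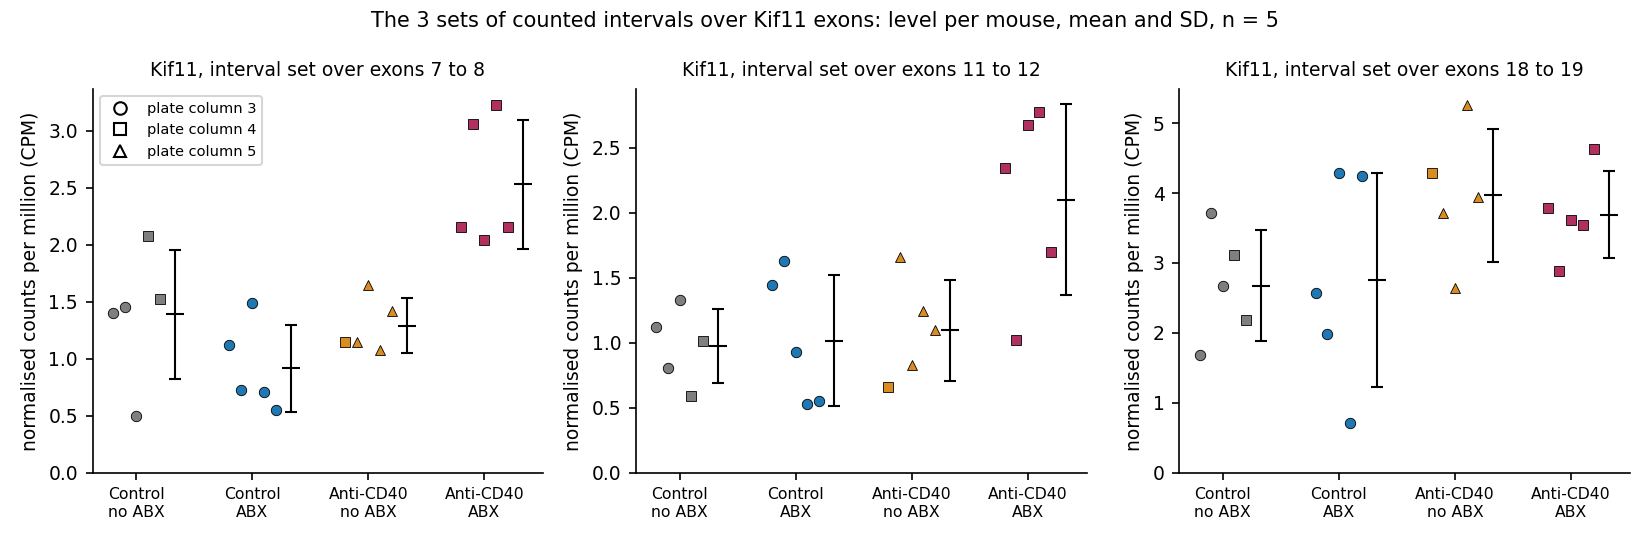
Level per mouse (points, normalised CPM from 0) of the 3 features counted over Kif11 exons, by group, with the group mean and SD, n = 5, and the marker shape giving the plate column. Over exons 7 to 8 and 11 to 12 the anti-CD40 mice with ABX stand above the controls with ABX on average (2.54 against 0.923 and 2.11 against 1.02 CPM), and over exons 18 to 19 the groups overlap.

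The 3 genes did not vary together from mouse to mouse. Over the 20 libraries, Pearson's r of log2 CPM was -0.34 for Pcna and Ccnb2, 0.30 for Pcna and Kif11 and -0.25 for Ccnb2 and Kif11. With each group's mean subtracted these became -0.14, 0.14 and 0.10. The values share libraries and depth, and the low Kif11 counts limit what r can reach. Among 2188 other genes with a mean of at least 1 CPM, the patterns most like that of Pcna were Arid3a (r = 0.70), Grk2 (0.68) and Kdelc1 (0.67). For Ccnb2 they were Tc2n (0.80), the antisense gene Gm15883 (0.78) and Mad1l1 (0.75), and for Kif11 they were Slc6a6 (0.80), Cep350 (0.80) and Bmpr1a (0.77). With group means subtracted, Dhx35 (0.68), Slc38a9 (0.66) and Gm3571 (0.66) came first for Pcna, Slc8a3 (0.85), Brd3 (0.84) and Gm15883 (0.74) for Ccnb2, and Arid1b (0.88), Rnf213 (0.84) and 4932438A13Rik (0.83) for Kif11.

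Cell cycle and related genes were followed in 13 lists of 411 different genes, of which 69 had assigned counts and 45 were tested. The 45 include related genes outside the cycle itself: 6 interphase kinesins, 3 cyclins outside the cell cycle engine and 4 growth signals of liver regeneration. After anti-CD40 without ABX, 4, 1 and 2 of these were called lower and 1 of each list higher. With ABX, 1 of each list was lower, and 1, 1 and 0 were higher. After anti-CD40 without ABX, 12 of the 45 were called higher and 12 lower, 53.3% in all against 60.6% of all tested genes, with a median change of -0.14 against 0.03 over all tested genes. With ABX, 9 were higher and 10 lower, 42.2% in all against 51.5% of all tested genes, with a median of 0.13 against 0.02. With library totals the split became 16 higher and 7 lower without ABX and 24 higher and 1 lower with ABX, so many single calls below rest on the scaling. Library totals ended the falls of Mthfd1, Kif13a, Ccnj, Met and Egfr without ABX and those of Pold2, Rbl2, Ccnb2, Anapc5, Anapc7, Pds5b, Kif1c, Ccny and Egfr with ABX. They also ended the calls of Mad1l1, Anapc7 and Ckap5 for ABX in controls, of Mad1l1 for the difference of effects and of Kif13b for ABX in anti-CD40 mice. With the plate column as a term, 4 of the 45 were higher and 3 lower without ABX, and 6 were higher and 2 lower with ABX. Those that kept their call under this term were Pold3, Ccnd2, Btg1 and Kif21a higher and Rbl2, Tfdp2 and Kif1c lower without ABX. With ABX they were Pold3, E2f3, Btg1, Kif20b, Tuba1c and Ccng2 higher and Rbl2 and Kif1c lower. Every other call of the 45 genes under TMM scaling, in all 5 comparisons, ended with the plate term.

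Around Pcna, 6 of 57 genes of DNA replication and clamp loading were tested. Pold3, a subunit of the replicative polymerase delta, rose from 27.2 ± 2.01 to 52.3 ± 5.12 CPM without ABX (0.94 ± 0.09, adjusted p = 3.61e-09) and from 31.1 ± 4.03 to 52.8 ± 2 CPM with ABX (0.76 ± 0.09, adjusted p = 1.24e-07). Its partner subunit Pold2 fell by 0.28 with ABX (adjusted p = 0.0401), a call that library totals turned to 0.07. Cdc45, a helicase cofactor, Gmnn, which blocks licensing, and Prim2, a primase subunit, were not called, at 0.46, 0.42 and 0.58 with ABX. Library totals turned these to 0.82, 0.76 and 0.92, all called (adjusted p = 0.00301, 0.00119 and 0.00818). Of the 2 tested genes of nucleotide supply, the folate enzyme Mthfd1 fell without ABX (-1.08 ± 0.35, adjusted p = 0.0102) and Rrm1, the large subunit of ribonucleotide reductase, was not called in either anti-CD40 comparison (-0.16 and 0.20), but was called with ABX under library totals (0.56, adjusted p = 0.000346). The 3 tested DNA repair partners of PCNA, Rev1, Usp1 and Fancm, were not called, and their lowest adjusted p in the 5 comparisons was 0.0863, for Fancm after anti-CD40 without ABX (-0.79 ± 0.40). With library totals Rev1 was called after anti-CD40 with ABX (0.76, adjusted p = 0.0162).

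Among 6 tested regulators of the step from G1 to S phase, Ccnd2, cyclin D2, rose without ABX (0.98 ± 0.31, adjusted p = 0.00925) and the transcription factor E2f3 rose with ABX (1.08 ± 0.26, adjusted p = 0.00105). Rbl2, the p130 pocket protein of resting cells, fell from 42.3 ± 2.99 to 21 ± 2.39 CPM without ABX (-1.01 ± 0.09, adjusted p = 9.03e-10). With ABX it fell by 0.46 (adjusted p = 0.000108), and the effects differed by 0.55 ± 0.13 (adjusted p = 0.0114). Among anti-CD40 mice Rbl2 was 0.62 ± 0.09 higher with ABX (adjusted p = 9.04e-05). Tfdp2, an E2F partner, fell without ABX (-1.50 ± 0.30, adjusted p = 0.000149). Btg1, an antiproliferative factor and the single tested gene of the list of CDK inhibitors and p53 targets, rose without ABX (1.82 ± 0.16, adjusted p = 6.31e-10) and with ABX (1.16 ± 0.16, adjusted p = 1.08e-06).

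Around Ccnb2, 3 of 30 genes of the G2 to M transition were tested, and 2 fell after anti-CD40 with ABX, where 24.9% of all tested genes were lower. One of the 2 is Ccnb2 itself and the other was Mad1l1, a spindle checkpoint protein, at -0.74 ± 0.13 (adjusted p = 2.55e-05), from 18.8 ± 3.61 to 11.2 ± 0.633 CPM. Like Ccnb2 it was highest in controls with ABX, where it exceeded controls without ABX by 0.49 ± 0.12 (adjusted p = 0.0185), and its anti-CD40 effects differed by -0.59 ± 0.18 (adjusted p = 0.0447). With the plate column as a term neither gene was called with ABX, and Mad1l1 was at -0.59 (adjusted p = 0.0541). The phosphatase Cdc25b was not called (0.67 with ABX, adjusted p = 0.0858). Of the anaphase-promoting complex, which marks cyclin B for degradation, 2 subunits were tested. Anapc5 fell without ABX (-0.45 ± 0.08, adjusted p = 3.06e-05) and with ABX (-0.24 ± 0.08, adjusted p = 0.0139). Anapc7 rose without ABX (0.33 ± 0.11, adjusted p = 0.0122), fell with ABX (-0.34 ± 0.11, adjusted p = 0.0139) and was 0.41 ± 0.11 higher with ABX in controls (adjusted p = 0.0285), and its 2 anti-CD40 effects differed by -0.67 ± 0.16 (adjusted p = 0.0127). With library totals the changes of Anapc5 and Anapc7 with ABX were 0.10 and 0.02. With the plate term the 4 calls of Anapc7 ended, at adjusted p = 0.105, 0.345, 0.132 and 0.17 in the order given.

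Around Kif11, 4 of 37 genes of mitotic kinesins and the spindle were tested, and 3 rose after anti-CD40 with ABX, with a median of 0.92 against 0.02 over all tested genes, of which 26.6% were higher. Kif11 is 1 of these 3, and its call ended with the plate column as a term, while those of Kif20b and Tuba1c held (1.84 and 0.56). Kif20b, a kinesin of late mitosis, went from 1.98 ± 0.42 to 4.64 ± 1.36 CPM, a rise of 1.22 ± 0.33 (adjusted p = 0.00311). The tubulin gene Tuba1c went from 69.4 ± 9.57 to 121 ± 14.3 CPM, a rise of 0.81 ± 0.12 (adjusted p = 3.6e-06). The spindle microtubule polymerase Ckap5 was at 0.06 ± 0.12 (adjusted p = 0.702). Without ABX, Tuba1c (0.72 ± 0.12, adjusted p = 1.13e-05) and Ckap5 (0.50 ± 0.12, adjusted p = 0.000831) rose and Kif20b was at 0.74 ± 0.33 (adjusted p = 0.0563). Ckap5 was also 0.45 ± 0.12 higher with ABX in controls (adjusted p = 0.0239). Of the 6 tested kinesins that carry cargo in interphase, Kif21a rose without ABX (0.60 ± 0.08) and with ABX (0.41 ± 0.08), and Kif1c fell in both (-0.67 ± 0.08 and -0.46 ± 0.08). Kif13a (-0.47 ± 0.14), Kif13b (-0.64 ± 0.13) and Kif26a (-1.39 ± 0.48) fell without ABX, and Kif13b was 0.39 ± 0.13 higher with ABX among anti-CD40 mice (adjusted p = 0.0469). Kif26a averaged 2.35 CPM in controls and 0.876 CPM in anti-CD40 mice without ABX, so its fall may not be independent of the filter.

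Lmnb1, lamin B1, rose without ABX (1.29 ± 0.41, adjusted p = 0.00872) and with ABX (1.51 ± 0.46, adjusted p = 0.0084). Its means were 1.48 and 0.927 CPM in controls without and with ABX and 3.65 and 2.66 CPM in anti-CD40 mice. At such low control levels it may have passed the filter through the anti-CD40 mice, so its calls may not be independent of the filter. With the plate term its changes were 0.83 (adjusted p = 0.457) and 1.22 (adjusted p = 0.286). The cohesin subunit Rad21 (0.22 ± 0.08) and the centromere protein Cenpb (0.20 ± 0.08) rose without ABX, and the cohesin regulator Pds5b fell without ABX (-0.68 ± 0.14) and with ABX (-0.40 ± 0.14). Among cyclins outside the cell cycle engine, Ccng2 rose without ABX (0.54 ± 0.13) and with ABX (0.72 ± 0.13), Ccnj fell without ABX (-0.34 ± 0.15) and Ccny fell with ABX (-0.31 ± 0.13, but 0.03 with library totals). Of the growth signals of liver regeneration, the receptors Met (-0.47 ± 0.13) and Egfr (-0.45 ± 0.16) fell without ABX, Egfr fell with ABX (-0.51 ± 0.16), and the coactivator Yap1 rose without ABX (0.37 ± 0.12).

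**Figure D5:**
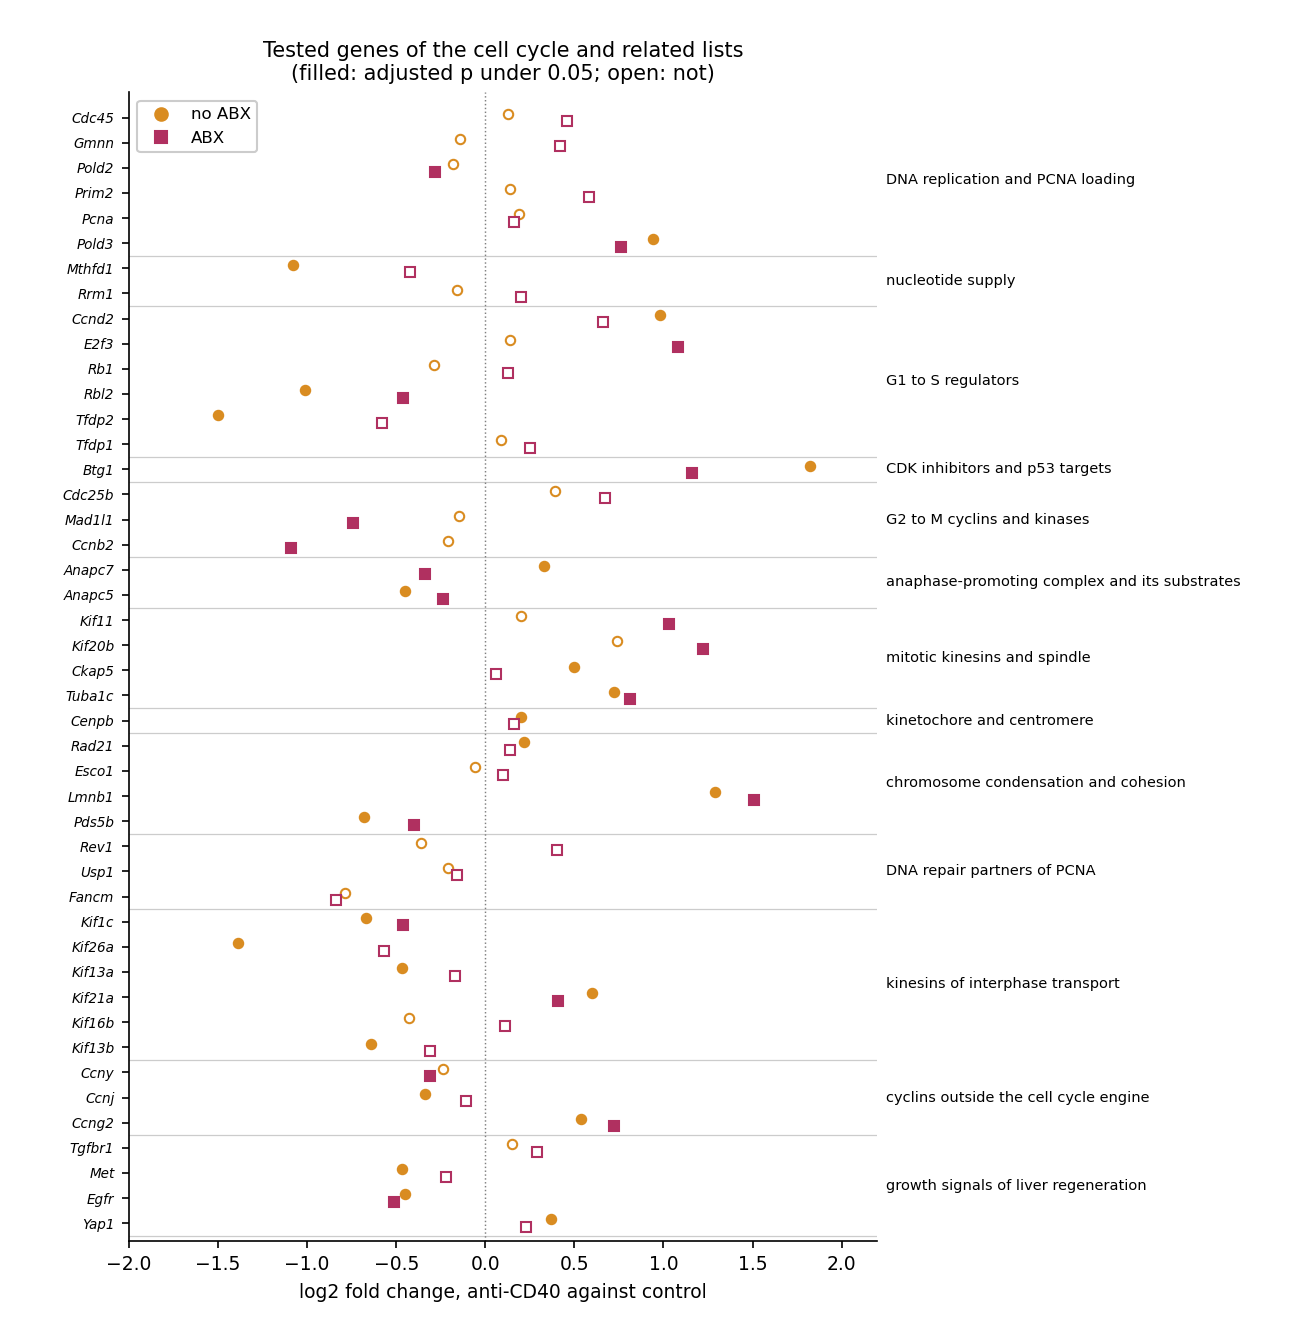
Log2 fold change after anti-CD40 (x axis) for the 45 tested genes of the 13 lists (y axis, grouped by list), with circles for mice without ABX and squares for mice with ABX, filled where the adjusted p was under 0.05. Kif11, Kif20b and Tuba1c are filled to the right with ABX, and Ccnb2 and Mad1l1 are filled to the left with ABX.

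A further 24 listed genes were counted too sparsely to be tested, and their fragments are summed here over the 5 mice of a group, in the order control without ABX, control with ABX, anti-CD40 without ABX and anti-CD40 with ABX. The kinetochore kinesin Cenpe had 9, 5, 26 and 34 fragments and the chromosome kinesin Kif4 had 3, 2, 19 and 11. Ckap2, a spindle protein, had 17, 5, 35 and 29, and Nuf2, of the outer kinetochore, had 5, 3, 12 and 15. Clspn, a replication checkpoint adaptor, had 0, 1, 5 and 11, and Pole2, a polymerase epsilon subunit, had 19, 2, 18 and 25. These 6 were picked after their counts were seen. Others had fewer fragments after anti-CD40 with ABX, such as Impdh1 (38, 40, 47 and 18) and Igf1r (20, 27, 32 and 10). Mki67, the proliferation marker, had 0 fragments in all 20 libraries over its 253 counted bp. A sum of 0 allows an expected total of up to 3 fragments over the 20 libraries. A fit with no filter tested 22 of the 24 genes. Their median change after anti-CD40 was 0.77 without and 0.79 with ABX, against 0 over all genes with counts. In that fit 2 were called after anti-CD40 without ABX, both higher: Kif4 (adjusted p = 0.0446) and the repair gene Fanca, with 14 and 45 fragments (adjusted p = 0.0181). There 33.3% of all 4217 genes with counts were called. With ABX 5 were called, against 28.7% of all genes with counts: Cenpe (adjusted p = 0.00449), Ckap2 (0.00867), Pole2 (0.0029) and Tgfb1 (0.0056) higher and Kif26b (0.0355) lower.

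Fewer cells of a type and less RNA per cell cannot be told apart in whole liver. Marker genes of other cells moved with anti-CD40 too. The 3 assigned of 12 T cell markers (Cd5, Cd8a and Cd8b1) summed to 0 to 1.34 CPM in control mice and 3.15 to 7.23 CPM in anti-CD40 mice. The 3 assigned of 9 monocyte and macrophage markers summed to 106 to 240 CPM in controls and 245 to 971 CPM in anti-CD40 mice, although Adgre1 among them fell. The 6 assigned of 10 hepatocyte markers summed to 211000 to 303000 CPM in controls and 61300 to 125000 CPM in anti-CD40 mice, a sum led by Alb and Serpina1e. Single hepatocyte markers differed: Asgr1 fell by less (-0.29 without and -0.25 with ABX), Foxa2 was at -0.10 with ABX (adjusted p = 0.801) and Fgfr4 rose (0.74 and 0.55). Endothelial markers (3 of 8) summed to 89 to 145 CPM in controls and 14.5 to 102 CPM in anti-CD40 mice, and stellate cell markers (2 of 9) to 75.8 to 214 and 6.79 to 129 CPM. Of the endothelial markers, Stab2 fell without and with ABX (-3.36 and -3.83). Pecam1 was called in neither (-0.19 and -0.53), and Stab1 was called lower only with ABX (0.15 and -0.67). The stellate cell markers Col3a1 and Lum were called lower only with ABX. Cholangiocyte markers (3 of 7) summed to 2.42 to 7.33 CPM in controls, 14.3 to 27.7 CPM in anti-CD40 mice without ABX and 9.37 to 10.2 CPM in those with ABX. The rise of this sum was that of Sox9 (3.05 without and 2.43 with ABX). Pkhd1 fell without ABX (-1.18, adjusted p = 0.00456) and was not called with ABX (-0.68, adjusted p = 0.0984). Plasma cell markers (2 of 7) summed to 218 to 424 CPM in controls and 327 to 490 CPM in anti-CD40 mice, the Kupffer cell marker Marco (1 of 6) to 3.36 to 93.1 and 22.9 to 133 CPM, and dendritic cell markers (3 of 7) to 0 to 1.28 and 0 to 1.48 CPM. The plasma cell sum was led by Xbp1. Ighm, its other member, was at 0.09 without ABX (adjusted p = 0.649) and 0.71 with ABX (adjusted p = 0.00068). Sums for T cells and macrophages overlapped between mice with and without ABX within each treatment. Those for cholangiocytes and the values of Marco did not overlap among anti-CD40 mice, a comparison where 10% of tested genes did not overlap. Marco had 22.9 to 33 CPM with ABX and 38.5 to 133 CPM without, and was not called there (-1.26, adjusted p = 0.15). There Sox9 (-1.25, adjusted p = 0.000484) and Stab1 (-0.89, adjusted p = 0.0247) were lower with ABX, and Cps1 (0.64, adjusted p = 0.000212) and Alb (0.41, adjusted p = 0.0292) were higher. The B cell marker Cd79b, the 1 assigned of 8, ranged from 1.58 to 5.44 CPM over all mice. The part of these cells in the levels of Pcna, Ccnb2 and Kif11 was not tested.

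The promoters are shown because genes of G2 and mitosis share short elements there: the CCAAT box, bound by NF-Y, and the cell cycle genes homology region, letters TTTGAA, bound by complexes that repress these genes in resting cells. In the RefSeq windows of 300 bases around the gene start (build GRCm38.p6), searched on both strands, Ccnb2 held 3 CCAAT and 2 TTTGAA, Kif11 held 1 of each, and Pcna held 1 CCAAT and no TTTGAA. Of 32851 such windows, 37.4% held a CCAAT and 17.9% a TTTGAA, 11.7% held at least 2 CCAAT and 2.31% at least 2 TTTGAA. The E2F letters TTTCCCGC, TTTCGCGC, TTTGCCGC or TTTGGCGC were in 2.26% of windows and in none of the 3. A match is a description of letters only. The sequences stop at the most upstream annotated transcript start, so the Pcna CCAAT and 1 TTTGAA of Ccnb2 lie outside what is printed, and capitals mark the other matches on either strand.
Pcna promoter, chr2:132253315-132253430, minus strand: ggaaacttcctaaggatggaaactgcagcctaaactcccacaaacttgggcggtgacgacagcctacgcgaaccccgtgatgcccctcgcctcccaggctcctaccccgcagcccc
Ccnb2 promoter, chr9:70421555-70421804, minus strand: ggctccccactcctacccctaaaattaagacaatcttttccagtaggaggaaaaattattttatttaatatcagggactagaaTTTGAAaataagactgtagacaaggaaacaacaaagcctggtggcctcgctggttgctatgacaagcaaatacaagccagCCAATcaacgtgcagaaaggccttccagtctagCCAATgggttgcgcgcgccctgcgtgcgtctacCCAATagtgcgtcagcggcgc
Kif11 promoter, chr19:37376132-37376381, plus strand: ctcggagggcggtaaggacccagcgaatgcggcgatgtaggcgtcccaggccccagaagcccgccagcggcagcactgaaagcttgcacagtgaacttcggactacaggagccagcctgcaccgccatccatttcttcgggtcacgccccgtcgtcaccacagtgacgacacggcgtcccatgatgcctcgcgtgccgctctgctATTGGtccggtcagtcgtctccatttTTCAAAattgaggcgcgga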

How the data were processed

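Whole-number counts per feature of 20 liver libraries were used as deposited. Per the submitters' processing notes, the authors used Trimmomatic 0.38, HISAT2 2.1.0 and build mm10, and per the file headers featureCounts 1.5.0-p2 counted fragments in paired mode over exons of the human GRCh38 annotation of Ensembl release 93, with no strand option. The human identifiers were ignored: intervals were read as mm10 and intersected with GENCODE M21 exons (bedtools 2.31.1). Only a feature with 50 bp or more on the exons of a single gene was assigned, which gave 7463 features and 5552 genes. The 52.34% of counts in features shared by several genes were not used.

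Tests were edgeR 4.0.16 quasi-likelihood F-tests in R 4.3.3 (TMM, filterByExpr, 1 robust fit of 20 libraries, two-sided, sizes from all features, tested on simulated data). The biological coefficient of variation was 16.7%. Alternatives were DESeq2 1.42.0, library totals, no filter, overlaps of 1 and 100 bp, the plate column as a term, only the groups compared, and leaving out each mouse. Copies were sought with blastn 2.17.0. Besides the 3 genes, the text names the 3 genes most like each and every tested list gene that was called in a comparison. The genes and lists were chosen with earlier results of these data known. Counting error limits Kif11 most.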

Additional observations from a re-analysis of the deposited data

How the results depend on the processing

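No paired analysis was possible because the mouse numbers are not shared between groups. Results are for Pcna, Ccnb2 and Kif11 in the 5 comparisons, as log2 fold changes, and for the number of genes called. With library totals, Ccnb2 gave -0.73 after anti-CD40 with ABX and 0.05 without ABX, Pcna gave 0.52 and 0.44, 0.08 for the difference of effects and -0.12 for ABX in controls, and Kif11 gave -0.04 for ABX in controls. Library totals moved the share of calls that were higher from 52.5% to 69.7% without ABX, from 51.6% to 76.8% with ABX and from 57.8% to 80.3% for the difference, and from 51.7% to 20.1% for ABX in controls. With the plate column as a term, Ccnb2 gave -0.70 for anti-CD40 with ABX, -0.53 without ABX, -0.18 for the difference and 0.37 for antibiotics in anti-CD40 mice, Kif11 gave 1.47 with ABX, -0.26 without ABX, 1.73 for the difference, -0.08 for ABX in controls and 1.64 for ABX in anti-CD40 mice, and Pcna gave -0.12 without ABX, 0.18 for the difference and 0.24 for ABX in anti-CD40 mice. The counts of called genes under that term were 735 for anti-CD40 without ABX, 690 with ABX, 77 for ABX in controls, 5 for ABX in anti-CD40 mice and 0 for the difference by edgeR, where 282 had an unadjusted p under 0.05 and DESeq2 without the term called 200. Without a filter Kif11 gave 1.0 with ABX, and its 3 features summed gave -0.10 for ABX in controls. The cause of these changes was not tested. Kif11 passed the filter in only 1 of the 4 fits restricted to the groups compared, that of ABX in anti-CD40 mice (0.91, adjusted p = 0.104). Its call after anti-CD40 with ABX therefore has no value from such a fit. The overlap alternatives and DESeq2 changed no call or direction of the 3 genes, but DESeq2 gave no adjusted p for the Kif11 difference.

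Leaving out 1 mouse at a time, Pcna ranged from 0.13 to 0.23 after anti-CD40 without ABX, 0.09 to 0.21 with ABX, -0.09 to 0.04 for the difference, -0.04 to 0.08 for ABX in controls and -0.06 to 0.06 for ABX in anti-CD40 mice. Ccnb2 ranged, in that order, from -0.44 to 0.02, -1.39 to -0.93, -1.16 to -0.65, 0.54 to 0.92 and -0.46 to 0.05. Kif11 ranged from -0.02 to 0.33, 0.87 to 1.25, 0.67 to 1.05, -0.15 to 0.24 and 0.79 to 1.13. Counts of called genes ranged from 1262 to 1349, 1047 to 1154, 88 to 194, 89 to 157 and 225 to 380. The difference had 88, 94, 109, 110 and 104 calls without mouse 14, 18, 4, 5 or 10. ABX in controls had 90 and 89 without mouse 4 or 10, and ABX in anti-CD40 mice had 225 and 230 without mouse 14 or 18.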
